A study of Mus musculus with 12 samples.

Results

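Glycolysis and the hypoxia response were described here through 32 mouse genes chosen by name. Of these, 18 act in glucose uptake, glycolysis and pyruvate or lactate handling, and 14 encode subunits, regulators or transcriptional targets of the hypoxia-inducible factors (HIFs). The gene table held 46095 genes, and all 32 were in it. All 32 also passed the filter on low counts, which left 13743 genes for testing. The RNA came from whole pancreas of mice on postnatal day 56 with caerulein pancreatitis, an acute injury produced by overstimulating the acinar cells with a cholecystokinin analogue. Every mouse was given caerulein at 100 µg/kg in 10 injections into the peritoneum, 1 each hour, and was killed 12 h after the first. The 6 libraries WT 1 to WT 6, came from C57BL/6J wild-type mice and the 6 libraries AMKO 1 to AMKO 6 from Axl-/-Mertk-/- mice, which lack 2 receptor tyrosine kinases used by phagocytes to recognise dying cells. For the mutants, neither strain background nor allele design is given in the sources used here. Both genotypes were treated, so no level of an uninjured pancreas was analysed here.

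Glycolysis converts glucose to pyruvate in the cytosol, and lactate dehydrogenase reduces pyruvate to lactate when oxidation in mitochondria is limited or glycolytic flux is high. HIF transcription factors are dimers of an oxygen-labile alpha subunit and a stable beta subunit. With oxygen present, prolyl hydroxylases mark the alpha subunit for destruction, and when oxygen falls the dimer binds hypoxia response elements and raises glucose transporters, most glycolytic enzymes and genes such as Vegfa. Neutrophils depend on glycolysis, and acinar cells meet most of their energy demand by mitochondrial respiration.

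The letters ACGTG form the core of the most commonly described hypoxia response element, and RefSeq promoters on GRCm38.p6, from 250 bases before to 50 after a start site, were searched for them on both strands. Of the 32 genes, 28 had a promoter in the table, 40 promoters in all, and Bnip3l, Epas1, Ndrg1 and Slc2a3 had none. The 3 windows printed here belong to genes whose levels in AMKO are described in most detail further on. Capitals mark ACGTG or its reverse complement CACGT, and where both overlap as CACGTG the run is a match on each strand.
Pgk1 (chrX:106186850-106187149, plus strand): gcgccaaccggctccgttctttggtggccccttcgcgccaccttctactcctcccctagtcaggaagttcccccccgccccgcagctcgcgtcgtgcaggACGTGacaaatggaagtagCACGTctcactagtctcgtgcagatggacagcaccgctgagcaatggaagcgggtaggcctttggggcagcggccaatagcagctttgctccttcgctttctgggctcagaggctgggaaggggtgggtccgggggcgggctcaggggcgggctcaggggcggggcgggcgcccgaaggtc
Ldha (chr7:46845554-46845853, plus strand): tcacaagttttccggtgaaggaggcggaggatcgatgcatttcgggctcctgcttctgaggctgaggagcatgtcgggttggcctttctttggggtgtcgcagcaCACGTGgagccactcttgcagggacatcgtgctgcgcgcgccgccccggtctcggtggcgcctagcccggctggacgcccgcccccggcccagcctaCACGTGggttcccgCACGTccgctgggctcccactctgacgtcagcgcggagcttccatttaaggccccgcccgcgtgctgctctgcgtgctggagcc
Pfkfb3 (chr2:11553880-11554179, minus strand): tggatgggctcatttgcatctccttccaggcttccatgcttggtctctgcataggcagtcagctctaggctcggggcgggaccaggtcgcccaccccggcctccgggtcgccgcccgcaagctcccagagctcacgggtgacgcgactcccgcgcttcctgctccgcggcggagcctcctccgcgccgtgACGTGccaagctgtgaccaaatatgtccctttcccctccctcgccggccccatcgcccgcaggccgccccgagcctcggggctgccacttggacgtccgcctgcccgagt
The Pgk1 window held 2 matches, which begin 150 and 131 bases before the start site. The Ldha window held 5 matches in 3 blocks of letters, 2 of which are CACGTG, and the Pfkfb3 window held 1 match, 60 bases before the start. Pfkfb3 has a further start site in RefSeq, whose window carried CACGTG, and Ldha one whose window carried no match. In all, 23 of the 40 promoters (57.5%) held ACGTG on either strand, against 6447 of 32851 promoters of the same length in the table (19.6%). Both role groups carried it above that share, in 12 of 26 promoters of the glycolytic genes (46.2%) and in 11 of 14 of the HIF pathway genes (78.6%). Some windows of the same gene overlap, as for Aldoa, so a site can count more than once. By gene, 10 of 17 glycolytic genes (58.8%) and 10 of 11 HIF pathway genes (90.9%) held a match, against 21.8% of all genes with a promoter. Another core, GCGTG on either strand, was in 20 of 40 (50%) against 32.4% of all promoters. Base composition differed as well, with a median GC content of 64.8% in the 40 promoters and 52.7% in all promoters, and its part in these shares was not tested. Gpi1 and Tpi1 had no ACGTG in their windows, and a match or its absence is a description of these letters only.

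Library depth ranged from 10668637 to 15184371 counts, and levels are given as CPM, the counts of a gene scaled to a fixed library size. Acinar marker genes took 21.1% to 27.6% of the counts in WT and 20.8% to 29.1% in AMKO, so the labelled tissue was present in every library. Axl, 1 of the 2 targeted genes, had 44.4 to 77.1 CPM in WT and 5.60 to 11.5 CPM in AMKO. Albumin, a liver transcript, had 2 to 7 counts in WT 1 to 3 and 141 to 309 in the other 9 libraries, so the wild-type libraries fell into 2 sets by this trace. Neutrophil marker genes summed to 61.3 to 79.8 CPM in WT 3, WT 6, AMKO 3 and AMKO 6 and to 180 to 661 CPM in the other 8 libraries. No label ties a library to an individual mouse, so p-values measure the spread between these samples, which may be technical. Within a genotype, all 30 pairs of libraries differed by more than the sampling of reads gives, with chi-square per degree of freedom from 9.78 to 74.2. Some cell type markers moved with genotype. All 7 duct markers had fitted values below 0, with Spp1 and Epcam called lower, and summed to 1977 to 2624 CPM in WT and 1541 to 2226 CPM in AMKO. Of 10 acinar markers Ptf1a (log2 difference 1.21) and Bhlha15 (0.86) were called higher, of 8 macrophage markers Mrc1 (0.81) was called higher, and of 7 fibroblast and stellate markers Pdgfrb (-0.62) was called lower. All 8 macrophage markers had fitted values above 0 (median 0.44). All 8 neutrophil markers had fitted values below 0 (median -0.32), with 0 called. The part of the duct and fibroblast markers in the differences of the 32 genes was not tested. In whole tissue, fewer cells of a type and less RNA per cell cannot be told apart.

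Of the 32 genes, 3 rose in AMKO pancreas and 0 fell by edgeR's quasi-likelihood test at a Benjamini-Hochberg adjusted p under 0.05. The 3 were Pgk1 and Pfkfb3 among the glycolytic genes and Ndrg1 among the HIF targets, at 1.48-fold to 1.64-fold of their WT level. They made up 9.38% of the 32, beside 5.78% of all tested genes called in either direction, and 2.41% called higher. Before adjustment, 7 of the 32 were higher and 2 lower at p under 0.05, a level that 21.9% of all tested genes reached. Pgk1, Pfkfb3 and Ndrg1 were also called, again higher, with the acinar share of counts or a neutrophil and macrophage score as a covariate. The score itself had a mean of 0.018 in WT and -0.018 in AMKO, as its neutrophil and macrophage markers leaned opposite ways. The acinar share had a mean of 24.6% in WT and 25.4% in AMKO. With means this close, neither covariate could take up much of a genotype difference. No fit used duct, fibroblast or endothelial markers, so the part of cell composition in these calls was not tested. DESeq2 called 6 higher and 0 lower, beside 8.39% of all its tested genes, and limma voom called 5 higher and 2 lower, beside 12.1%. The median log2 difference of the 32 was 0.08, against -0.0020 for all tested genes, and 19 of 32 lay above 0, against 49.7% of all tested genes. Groups of 6 libraries did not overlap for 3 of the 32, Pgk1, Ldha and Gpi1, all with AMKO higher, and 0 with AMKO lower. Among all tested genes, 3.54% did not overlap, 1.24% with AMKO higher and 2.3% with AMKO lower. The display of all 32 genes by library shows that most rows vary little and that a few, such as Slc2a3 and Egln3, vary strongly within each genotype.

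**Figure D1:**
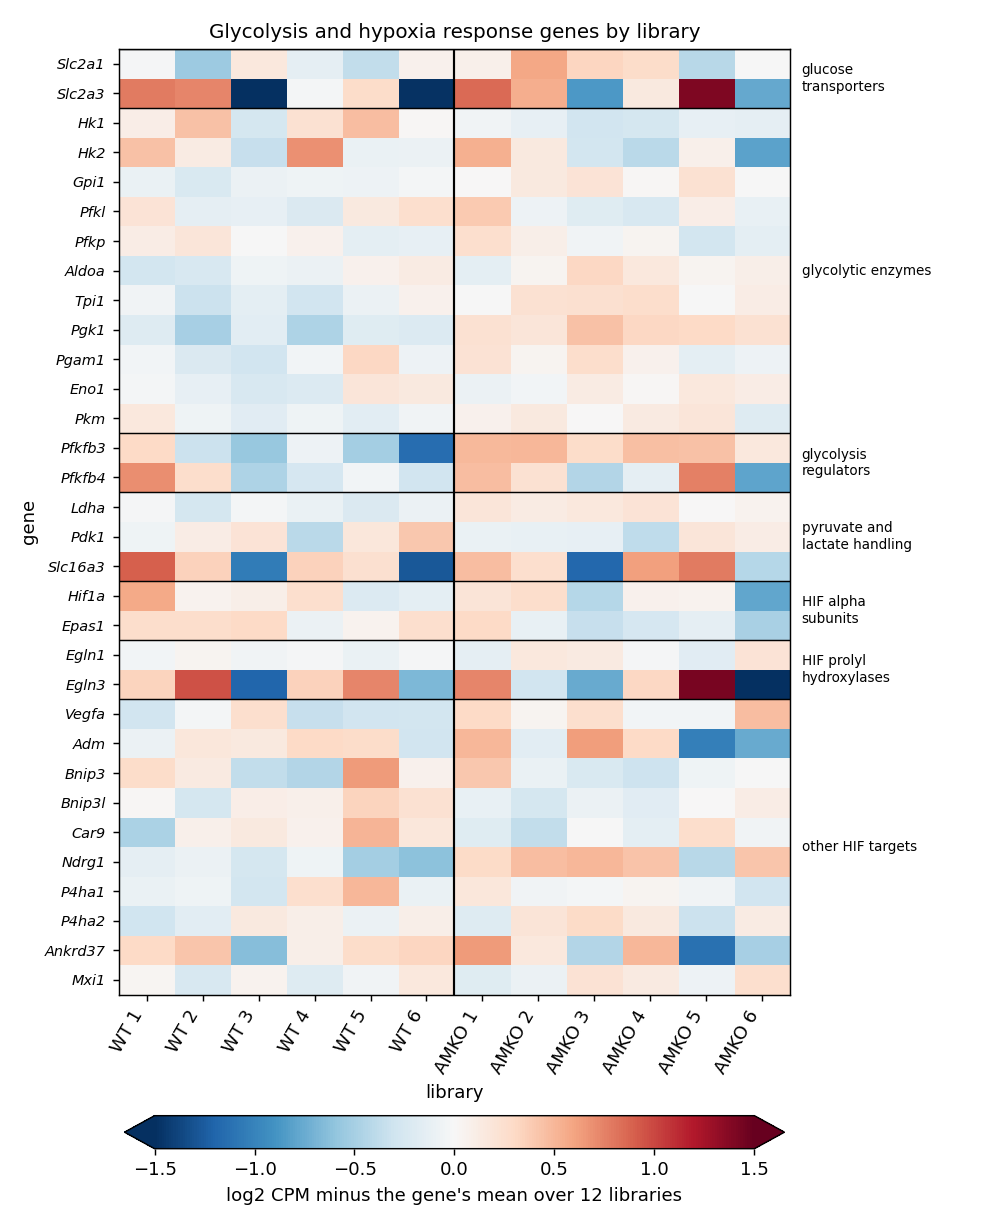
Colours show the log2 CPM of each of the 32 genes (rows, by role) in each of 12 libraries (columns) minus that gene's mean over the 12, with colours saturating at 1.5 in either direction. Pgk1 is red in all 6 AMKO libraries and blue in all 6 WT libraries, while Slc2a3, Slc16a3 and Egln3 are blue in WT 3, WT 6, AMKO 3 and AMKO 6.

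Glucose enters cells through facilitative transporters, and neither of the 2 measured here passed the test in edgeR. None had an unadjusted p under 0.05, and DESeq2 and limma voom called 0. Slc2a1 (GLUT1), the widely expressed transporter, ranged from 63.2 to 103 CPM in WT (median 87.8) and from 68.9 to 138 CPM in AMKO (median 104). AMKO 2, AMKO 3 and AMKO 4 lay above every WT library and the rest lay within the WT range. Its log2 difference was 0.29 (SE 0.15, adjusted p = 0.286). Slc2a3 (GLUT3), the high-affinity transporter typical of neurons and leukocytes, had only 11 to 113 counts per library, and ranged from 0.897 to 5.36 CPM in WT (median 3.37) and from 1.62 to 8.29 CPM in AMKO (median 3.96). Its spread within each genotype was wider than the difference between them, 0.40 on the log2 scale (SE 0.48, adjusted p = 0.670).

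Of the 11 glycolytic enzymes, Pgk1 rose in AMKO, 0 fell, and the other 10 did not pass the edgeR test. Their log2 differences had a median of 0.12, and 7 of 11 were above 0. Phosphoglycerate kinase 1, encoded by Pgk1 (GRCm38, chromosome X, 106187100 to 106203699, plus strand), catalyses the first ATP-yielding step of glycolysis. It measured 23.8 to 30.0 CPM in WT (median 29.2) and 38.1 to 45.8 CPM in AMKO (median 40.3). The lowest AMKO library, AMKO 2, stood above the highest WT library, WT 3. Means were 27.7 ± 2.81 CPM in WT and 41.0 ± 2.68 CPM in AMKO (SD, n = 6 each), a 1.48-fold difference, or 0.56 on the log2 scale (SE 0.08, edgeR adjusted p = 0.00145). The call held in each of 26 alternative analyses, with log2 differences from 0.53 to 0.59 and adjusted p up to 0.0335. Mouse Pgk1 has 4 near-identical copies (at least 95% identity over at least 300 bases), and whether reads were shared among them is not known. The copies in the table held 89 counts beside 5335 for Pgk1 over the 12 libraries. With them added, the groups were 24.1 to 30.5 CPM in WT and 38.6 to 46.1 CPM in AMKO, without overlap. So few counts could hardly change the groups, and the sum cannot restore reads left uncounted for matching several copies. The copy Gm5537, with 100% identity over 1252 bases, held 0 counts, so the level of Pgk1 is less certain.

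A further 2 enzymes and lactate dehydrogenase shared the direction of Pgk1 with smaller differences that missed the threshold. Gpi1, glucose-6-phosphate isomerase, measured 117 to 134 CPM in WT (median 129) and 137 to 160 CPM in AMKO (median 145). No AMKO library reached down to the WT range, with AMKO 6 next to WT 6. The log2 difference was 0.20 (SE 0.06, edgeR adjusted p = 0.0846, DESeq2 0.0273), and Gpi1 lies 8.41 Mb from Axl on chromosome 7. Tpi1, triosephosphate isomerase, measured 242 to 316 CPM in WT (median 279) and 299 to 363 CPM in AMKO (median 339). WT 6 was the only WT library inside the AMKO range. Its log2 difference was 0.27 (SE 0.08, edgeR adjusted p = 0.0753), and it passed without AMKO 1 (0.0467), without AMKO 5 (0.0435), in DESeq2 (0.0240) and in limma voom (0.0137).

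Aldoa, fructose-bisphosphate aldolase A, and Pkm, pyruvate kinase of muscle and most growing tissues, were the enzymes with the most counts. Aldoa ranged from 366 to 485 CPM in WT (median 420) and from 402 to 551 CPM in AMKO (median 464), a log2 difference of 0.16 (SE 0.09, adjusted p = 0.329). Pkm ranged from 287 to 360 CPM in WT (median 309) and from 283 to 366 CPM in AMKO (median 346), a log2 difference of 0.12 (SE 0.08, adjusted p = 0.419). Both groups overlapped over most of their range for each gene. Per kilobase of exon, Aldoa (114 CPM per kb in WT), Tpi1 (100.1) and Ldha (81.4) stood at the top of the 32 genes and Slc2a3 (0.441) at the bottom. This order is approximate, since lengths took in all annotated exons of a gene. Tpi1 and Ldha, unlike Aldoa, also have near-identical copies, which may take some of their reads.

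Both hexokinases, which trap glucose in the cell, had fitted values below 0, and neither passed in edgeR. Hk1 measured 18.5 to 30.6 CPM in WT (median 24.9) and 18.1 to 21.3 CPM in AMKO (median 20.3). In 5 WT libraries the level was above every AMKO library and the remaining WT library, WT 3, was near the bottom of the AMKO range. The log2 difference was -0.35 (SE 0.12, edgeR adjusted p = 0.0920), it passed in limma voom (0.0477), and without WT 3 it was -0.42 (adjusted p = 0.0316). Hk2, the inducible hexokinase and a HIF target, ranged from 6.11 to 12.7 CPM in WT and from 4.43 to 11.4 CPM in AMKO (log2 difference -0.22, SE 0.23, adjusted p = 0.622). The 2 phosphofructokinase genes, Pfkl (-0.04, SE 0.12) and Pfkp (-0.02, SE 0.09), changed sign with the processing. The remaining enzymes were Pgam1 (log2 difference 0.12, SE 0.12), phosphoglycerate mutase, and Eno1 (0.09, SE 0.08), enolase. Their adjusted p were 0.611 and 0.594.

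**Figure D2:**
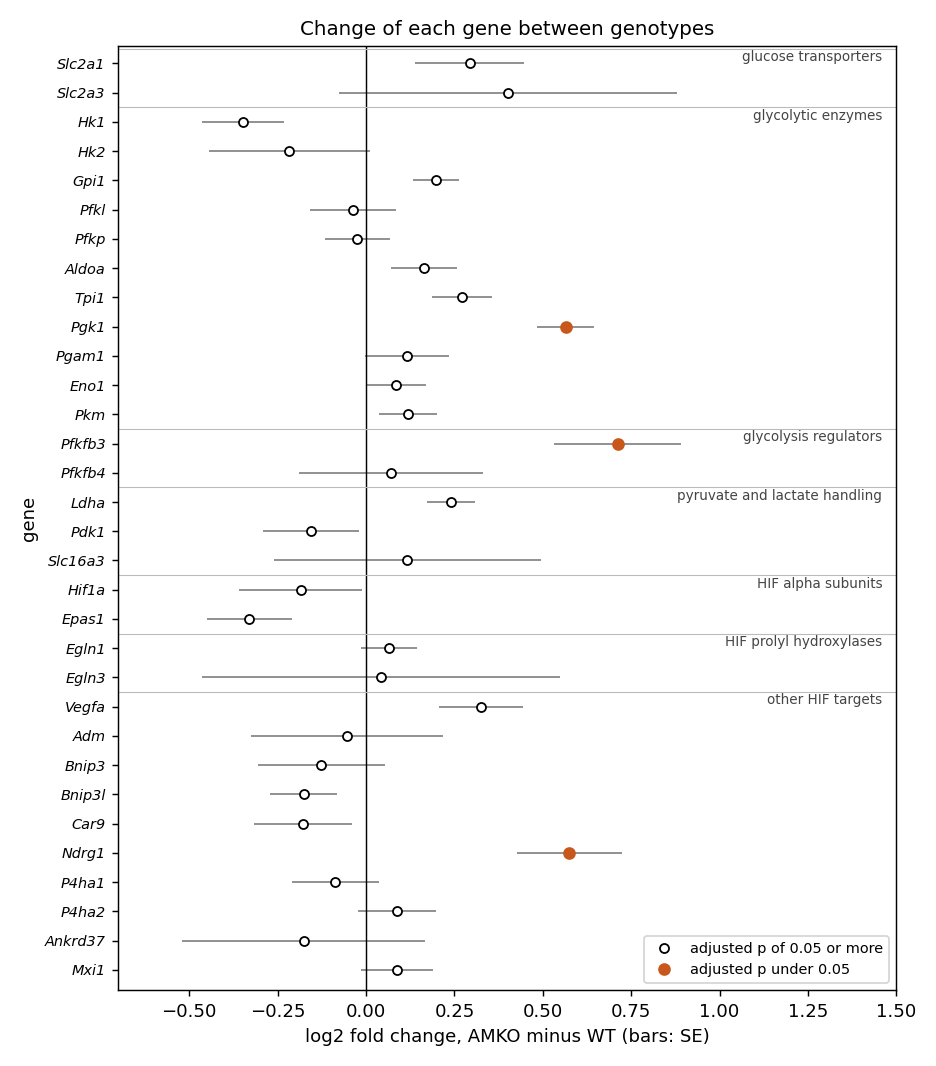
Points give the log2 difference, AMKO minus WT, from the edgeR fit for each of the 32 genes by role, with bars of 1 standard error. The points of Pgk1, Pfkfb3 and Ndrg1, the 3 genes that passed the test, lie at 0.56, 0.71 and 0.57, and the other 29 lie between -0.35 and 0.40.

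The 2 glycolysis regulators both make bifunctional enzymes that set the level of a fructose bisphosphate activator of phosphofructokinase, and 1 of them, Pfkfb3, rose in AMKO. Pfkfb3, whose product strongly favours synthesis of that activator, measured 16.0 to 43.8 CPM in WT (median 26.8) and 39.9 to 50.4 CPM in AMKO (median 48.6). WT 1 was the only WT library inside the AMKO range, above AMKO 3 (43.1) and AMKO 6 (39.9). Means were 28.6 ± 9.49 CPM in WT and 46.8 ± 4.29 CPM in AMKO (SD, n = 6 each), a 1.64-fold difference, or 0.71 on the log2 scale (SE 0.18, edgeR adjusted p = 0.0335). The call was lost in 9 of 26 alternatives, total count scaling among them. In 6 of these, 1 library was left out (WT 2, WT 3, WT 5, AMKO 2, AMKO 3 or AMKO 4). These 6 fits gave edgeR adjusted p from 0.0554 to 0.0740 and log2 differences from 0.67 to 0.73. Against WT 1 to 3 alone the log2 difference was 0.54 (adjusted p = 0.151), and without the 4 neutrophil-poor libraries it was 0.59 (adjusted p = 0.114). Pfkfb4 ranged from 7.09 to 16.0 CPM in WT (median 8.88) and from 5.62 to 16.6 CPM in AMKO (median 10.2). Its log2 difference was 0.07 (SE 0.26, adjusted p = 0.904) and its sign changed with the processing.

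At the end of the pathway, none of the 3 genes of pyruvate and lactate handling passed in edgeR, while 1, Ldha, had an unadjusted p under 0.05 and was called higher by DESeq2 and limma voom. Ldha, the lactate dehydrogenase subunit that favours lactate production, measured 244 to 288 CPM in WT (median 274) and 294 to 336 CPM in AMKO (median 323). AMKO 5, the lowest AMKO library, was above WT 1, the highest WT library. Means were 269 ± 18.2 CPM and 318 ± 16.7 CPM (SD, n = 6 each), a log2 difference of 0.24 (SE 0.07, edgeR adjusted p = 0.0520). It passed in 8 of 26 alternatives, DESeq2 (0.00632) and the fit without AMKO 5 (0.0321) among them, and the gene lies 21.05 Mb from Axl. Slc16a3 (MCT4), which exports lactate, ranged from 3.26 to 15.1 CPM in WT (median 9.91) and from 3.49 to 13.9 CPM in AMKO (median 10.4), a log2 difference of 0.12 (SE 0.38, adjusted p = 0.891). Pdk1, a kinase that shuts pyruvate dehydrogenase, ranged from 11 to 19.5 CPM in WT and from 11.2 to 16.6 CPM in AMKO, a log2 difference of -0.16 (SE 0.14, adjusted p = 0.540).

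**Figure D3:**
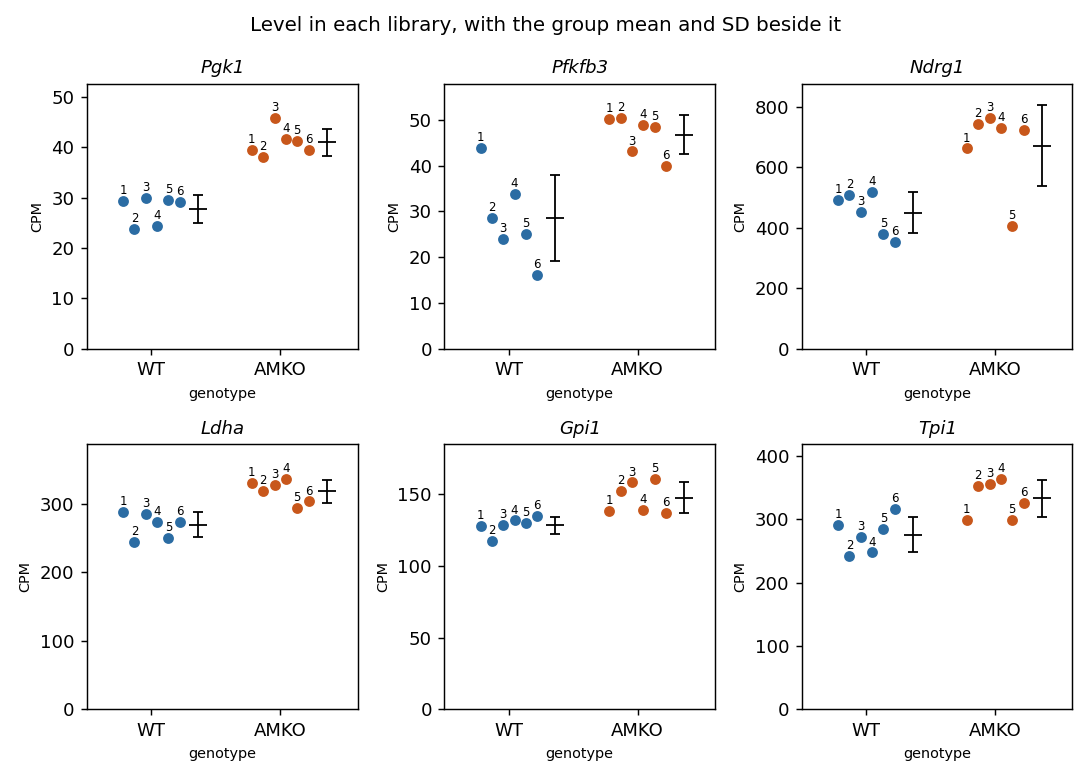
Each point is the level of a gene in CPM in 1 library, numbered by replicate, for 6 WT and 6 AMKO libraries, and the bars beside them give the group mean and SD. Pgk1, Ldha and Gpi1 show no overlap between genotypes, Pfkfb3 and Tpi1 overlap through WT 1 and WT 6, and Ndrg1 overlaps through AMKO 5.

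The 2 HIF alpha subunits had fitted values below 0 in AMKO. Neither passed in edgeR, 1 (Epas1) had an unadjusted p under 0.05 on the lower side, DESeq2 called 0 and limma voom called Epas1 lower. Hif1a, the broadly expressed subunit, ranged from 98.1 to 167 CPM in WT (median 119) and from 65.8 to 136 CPM in AMKO (median 118), a log2 difference of -0.18 (SE 0.17, adjusted p = 0.575). Epas1 (HIF-2 alpha), the subunit prominent in endothelium, measured 34.3 to 45.1 CPM in WT (median 43.7) and 26.0 to 44.9 CPM in AMKO (median 32). In 5 AMKO libraries Epas1 was below every WT library, and AMKO 1 was near the WT maximum. Its log2 difference was -0.33 (SE 0.12, edgeR adjusted p = 0.120, limma voom 0.0335), and without AMKO 1 it was -0.43 (adjusted p = 0.0186). All 7 endothelial marker genes had fitted values below 0, 1 of them, Kdr, called lower (log2 difference -0.83, edgeR adjusted p = 0.00752), and their summed level was 145 to 212 CPM in WT and 113 to 179 CPM in AMKO. Their part in the Epas1 value was not tested.

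The oxygen-sensing prolyl hydroxylases showed 0 calls in edgeR, DESeq2 and limma voom, and 0 unadjusted p under 0.05. Egln1 (PHD2), the main HIF hydroxylase, was among the steadiest of the 32, with 26.2 to 28.7 CPM in WT (median 27.4) and 24.9 to 32.1 CPM in AMKO (median 29.1). Its log2 difference was 0.06 (SE 0.08, adjusted p = 0.679). Egln3 (PHD3), itself a HIF target, had 3 to 65 counts per library, 0.652 to 3.41 CPM in WT (median 2.16) and 0.325 to 4.77 CPM in AMKO (median 1.74), and its difference of 0.04 on the log2 scale (SE 0.51, adjusted p = 0.974) changed sign with the processing.

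Among the 10 other HIF targets, Ndrg1 rose in AMKO, 0 fell and the other 9 did not pass. Ndrg1 encodes a stress-responsive cytoplasmic protein induced by hypoxia and by differentiation. It measured 353 to 520 CPM in WT (median 471) and 406 to 763 CPM in AMKO (median 727). The other 5 AMKO libraries, from 663 to 763 CPM, were above every WT library, while AMKO 5 lay within the WT range. Means were 451 ± 69.4 CPM and 671 ± 135 CPM (SD, n = 6 each), a 1.49-fold difference, or 0.57 on the log2 scale (SE 0.15, edgeR adjusted p = 0.0364). The call was lost in 13 of 26 alternatives. Of these, 9 left out 1 library (each except WT 4, AMKO 1 and AMKO 5), with adjusted p from 0.0504 to 0.0888, and without AMKO 5 the log2 difference was 0.70 (adjusted p = 0.00238). Without the 4 neutrophil-poor libraries it was 0.42 (adjusted p = 0.356), with only WT 1 to 3 as controls it was 0.47 (adjusted p = 0.236), and with only WT 4 to 6 it was 0.70 (adjusted p = 0.134).

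Vegfa, the angiogenic growth factor and a classical HIF target, measured 53.1 to 80.4 CPM in WT (median 55.6) and 65.7 to 93.3 CPM in AMKO (median 75.1). For Vegfa, 4 WT libraries lay below every AMKO library and 3 AMKO libraries above every WT library. Its log2 difference was 0.32 (SE 0.12, adjusted p = 0.120), and without WT 3 it was 0.42 (adjusted p = 0.0375). The mitophagy receptors Bnip3 (-0.13, SE 0.18) and Bnip3l (-0.18, SE 0.10) and the carbonic anhydrase gene Car9 (-0.18, SE 0.14) had log2 differences below 0, with adjusted p of 0.727, 0.300 and 0.489. The collagen prolyl hydroxylase subunits P4ha1 (-0.09, SE 0.12) and P4ha2 (0.09, SE 0.11), the peptide hormone gene Adm (-0.05, SE 0.27), Ankrd37 (-0.18, SE 0.34) and the MYC antagonist Mxi1 (0.09, SE 0.10) also did not pass, with adjusted p from 0.665 to 0.930. Adm and Ankrd37 were measured at 20 to 87 and 5 to 26 counts per library, and their standard errors are the widest of this group.

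Set side by side, 2 of 18 glycolytic genes (11.1%) and 1 of 14 HIF pathway genes (7.14%) were called, beside 5.78% of all tested genes. The glycolytic genes had a median log2 difference of 0.12 with 13 of 18 above 0, and the HIF pathway genes had a median of -0.07 with 6 of 14 above 0. Of all tested genes, 49.7% lay above 0, with a median of -0.0020. For each library the log2 CPM of the genes, centred on each gene's mean, was averaged within both sets, and the HIF mean was subtracted from the glycolytic mean. This difference ran from -0.18 to 0.14 in WT and from -0.04 to 0.32 in AMKO. In this quantity 5 WT libraries lay below every AMKO library, and WT 1 lay within the AMKO range. The genotypes differed by 0.19 in this quantity, from 0.14 without AMKO 5 to 0.23 without WT 1. The glycolytic mean itself was 0.15 higher in AMKO and the HIF mean 0.04 lower (-0.04), with libraries of both genotypes interleaved. No test was made of these averages, since the genes were chosen with earlier results known.

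**Figure D4:**
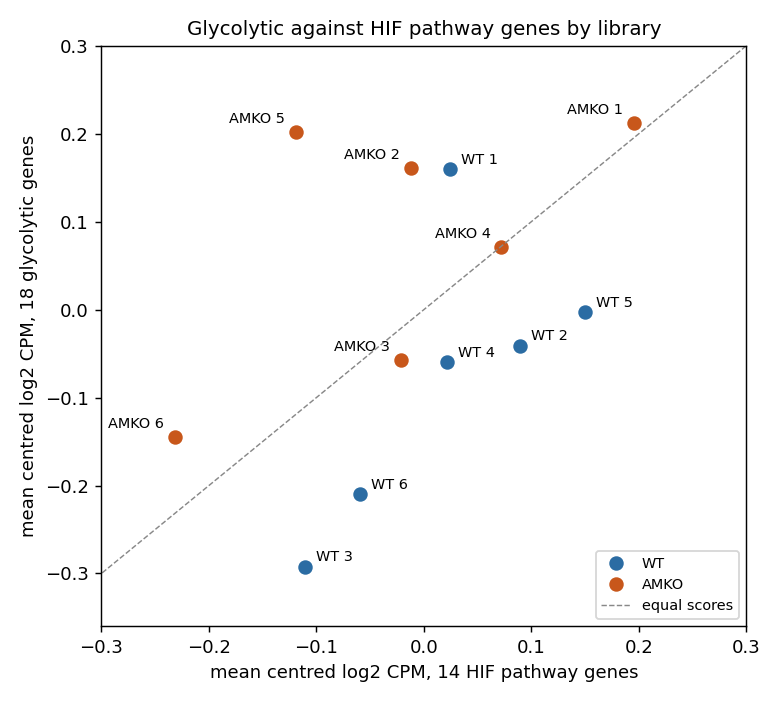
Each point is 1 library, with the mean centred log2 CPM of 14 HIF pathway genes on the horizontal axis and of 18 glycolytic genes on the vertical axis, and a dashed line where both are equal. Of the 6 WT libraries, 5 lie below the line and WT 1 above it, and the AMKO libraries lie on or near the line or above it.

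Of the 32 genes, 4 took their lowest values in the libraries with the fewest neutrophil transcripts. Slc2a3, Slc16a3, Pfkfb4 and Egln3 were each lower in WT 3, WT 6, AMKO 3 and AMKO 6, the libraries with the lowest neutrophil marker sums, than in any of the other 8. They are 12.5% of the 32, and 2.93% of all tested genes had that order. Slc2a3 was 0.897 to 1.73 CPM in those 4 libraries and 2.99 to 8.29 CPM in the other 8. Slc16a3 was 3.26 to 5.95 CPM against 9.53 to 15.1 CPM, and Pfkfb4 was 5.62 to 8.04 CPM against 8.23 to 16.6 CPM. Egln3 was 0.325 to 0.997 CPM against 1.35 to 4.77 CPM. No member was higher in those 4 libraries than in all others, and 2 libraries of each genotype are among the 4. The libraries were set apart by measured values, so these ranges carry no test. Those 4 libraries also had the lowest macrophage marker sums, 151 (WT 3) to 284 CPM (AMKO 3). In the other 8 libraries these sums ran from 313 (AMKO 4) to 650 CPM (AMKO 5), so neutrophils and macrophages cannot be told apart here. Pfkfb3, the called regulator, overlapped between the 4 libraries (16.0 to 43.1 CPM) and the other 8 (25.0 to 50.4 CPM). Within each genotype, however, the same libraries were its lowest, WT 6 (16.0 CPM) and WT 3 (24.0 CPM) in WT and AMKO 6 (39.9 CPM) and AMKO 3 (43.1 CPM) in AMKO. With a neutrophil and macrophage score as a covariate, its log2 difference between genotypes was 0.76 (edgeR adjusted p = 0.00314). That score averages markers that leaned opposite ways by genotype, and its mean was 0.018 in WT and -0.018 in AMKO. The part of a genotype difference in either cell type alone was not tested.

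**Figure D5:**
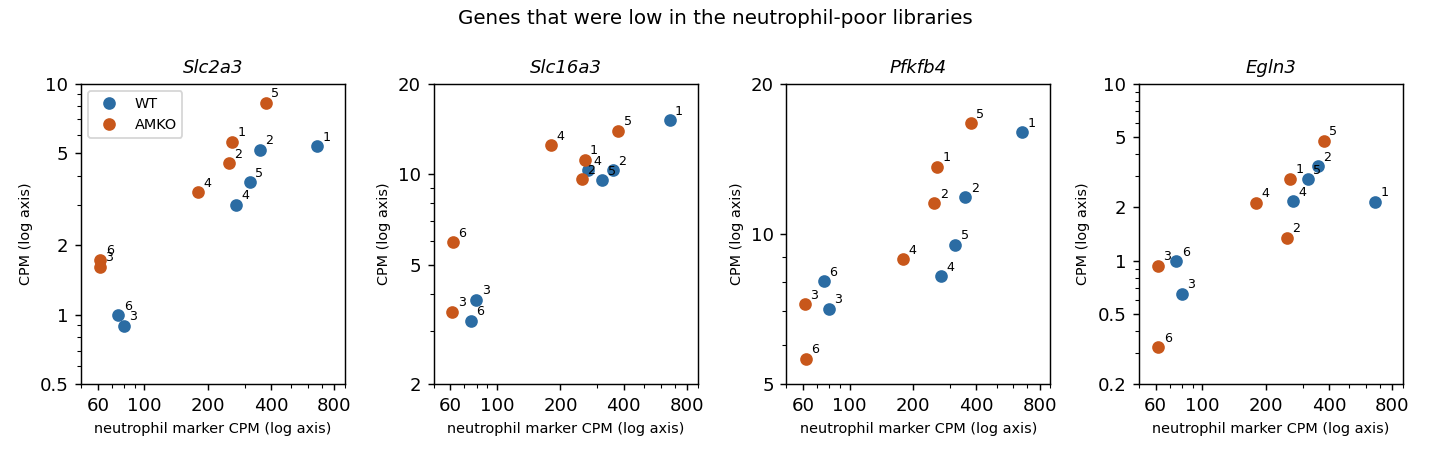
Each point is 1 library, numbered by replicate, with the summed CPM of 8 neutrophil marker genes on a logarithmic horizontal axis and the CPM of 1 gene on a logarithmic vertical axis. For Slc2a3, Slc16a3, Pfkfb4 and Egln3 the 4 libraries at 61.3 to 79.8 CPM of neutrophil markers lie below all others, whatever their genotype. The same 4 libraries also had the lowest macrophage marker sums.

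Other genes of the same pathways were called in both directions, beside the 5.78% of all tested genes. Of 17 tested among 20 further glycolysis genes, 0 rose and 2 fell (11.8%), Bpgm among them. Bpgm, bisphosphoglycerate mutase of red cells, was 24.0 to 32.6 CPM in WT (median 30.3) and 13.3 to 23.6 CPM in AMKO (median 19.1), a log2 difference of -0.64 (SE 0.12, edgeR adjusted p = 0.00800). Its groups did not overlap, and red cell marker genes ranged from 18.1 to 276 CPM in WT and from 7.39 to 45.0 CPM in AMKO, whose part in the result was not tested. The 276 CPM came from WT 3 alone, the next highest WT library, WT 5, had 28.2 CPM, and the 45.0 CPM came from AMKO 5. Against WT 1 to 3 alone, the log2 difference of Bpgm was -0.55 (adjusted p = 0.118), and without the 4 neutrophil-poor libraries it was -0.60 (adjusted p = 0.137). Gapdh, often used as a reference gene, had 150 to 318 counts per library, 12.1 to 19.0 CPM in WT (median 17.3) and 18 to 24.9 CPM in AMKO (median 19.7), with a log2 difference of 0.37 (SE 0.13, adjusted p = 0.115). It has 77 near-identical copies, which together held 6001 counts beside its own 2881, so its level here is uncertain.

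Fbp2, the muscle-type fructose bisphosphatase that opposes phosphofructokinase, rose, and it was the only 1 of 5 tested gluconeogenesis genes (20%) to be called. It was 7.84 to 9.86 CPM in WT (median 9.42) and 13.3 to 19.5 CPM in AMKO (median 17.1). Every AMKO library was above every WT library. The log2 difference was 0.87 (SE 0.11, edgeR adjusted p = 9.38e-04), and the call held in all 26 alternatives.

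Of 26 tested among 29 further HIF pathway genes, 1 rose, Cited2, and 2 fell, Ddit4 among them, which is 11.5% beside 5.78% of all tested genes. DESeq2 and limma voom each called 3 higher and 2 lower, where they called 8.39% and 12.1% of all genes. Cited2, which restrains HIF by competing for its coactivator, was 13.5 to 23.2 CPM in WT (median 20.2) and 19.6 to 38.5 CPM in AMKO (median 29.6), a log2 difference of 0.59 (SE 0.16, edgeR adjusted p = 0.0430). It overlapped through 1 AMKO library, and its call was lost in 12 of 26 alternatives, in 8 of them by leaving out WT 1, 3, 4, 5 or 6 or AMKO 2, 3 or 4 (log2 differences from 0.49 to 0.62, adjusted p from 0.0590 to 0.103). The other 4 losses came with total count scaling (0.55, adjusted p = 0.116), WT 1 to 3 alone (0.42, adjusted p = 0.288), WT 4 to 6 alone (0.79, adjusted p = 0.0866) and the 4 neutrophil-poor libraries left out (0.59, adjusted p = 0.116). Ddit4, an inhibitor of mTORC1 signalling induced by hypoxia and other stresses, was 305 to 526 CPM in WT (median 471) and 250 to 336 CPM in AMKO (median 278), a log2 difference of -0.63 (SE 0.14, edgeR adjusted p = 0.0188). Ddit4 lost its call in 4 of 26 alternatives. The log2 difference was -0.56 without WT 1 (adjusted p = 0.0505), -0.60 without AMKO 3 (0.0515), -0.55 with WT 4 to 6 alone (0.143) and -0.51 without the 4 neutrophil-poor libraries (0.226). The HIF targets called in AMKO thus lay on both sides of 0, with Ndrg1 higher and Ddit4 lower.

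Genes of pyruvate dehydrogenase, its regulators and the TCA cycle were not called in edgeR. Of 24 pyruvate dehydrogenase and TCA cycle genes, edgeR called 0, 4 were higher at unadjusted p under 0.05, DESeq2 called Pdk2 higher and limma voom called Pdk2 and Cs higher. In all, 20 of the 24 lay above 0, with a median log2 difference of 0.09. Of all tested genes, 49.7% lay above 0 and 21.9% had an unadjusted p under 0.05. The shares of all tested genes called were 5.78% in edgeR, 8.39% in DESeq2 and 12.1% in limma voom. Cs, citrate synthase, was 152 to 178 CPM in WT and 171 to 192 CPM in AMKO (log2 difference 0.16, SE 0.06, edgeR adjusted p = 0.142). Mdh2, mitochondrial malate dehydrogenase, was 160 to 235 CPM in WT and 179 to 239 CPM in AMKO (log2 difference 0.14, SE 0.10, edgeR adjusted p = 0.421). Of 7 pentose phosphate genes edgeR called 0, with 1 higher and 1 lower at unadjusted p under 0.05, and DESeq2 and limma voom each called Pgls higher. These counts stand beside the same shares of all tested genes. Taldo1, transaldolase, had a log2 difference of -0.03 (SE 0.14, edgeR adjusted p = 0.931), and Tkt, transketolase, one of 0.09 (SE 0.10, edgeR adjusted p = 0.637).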

How the data were processed

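RNA from pancreas was sequenced in 12 libraries, 6 of each genotype, and the authors deposited 1 table of read counts per gene, which are whole numbers and not normalized. Reads were aligned with HISAT2 2.0.4 to mm10, per the submitters' processing notes. The counting tool, its annotation, strand setting and treatment of reads with several matches were not given in the sources used here. All columns matched a labelled sample.

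The quasi-likelihood test of edgeR 4.0.16, run in R 4.3.3, was applied to the counts, with TMM scaling, its expression filter and genotype as the only term, and p-values were adjusted by Benjamini-Hochberg over 13743 genes and called at an adjusted p under 0.05. Adjusted p-values in the text come from this test unless another tool is named. Log2 CPM for display used a prior count of 2. The code was tested on simulated data. Alternatives were other scalings and filters, DESeq2 1.42.0, limma 3.58.1 (voom with quality weights), a replicate block, each library left out, parts of the WT group, 4 libraries left out together, and covariates for leukocyte or acinar markers. Near-identical copies were found with BLAST 2.17.0 against GENCODE transcripts of GRCm38.

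The genes and lists were chosen with earlier results of these data known. Every gene of the set is given with its difference. Values by group are given for those called and for at least the 2 most abundant of each role. Of each other list, the called genes are named (at most 6), otherwise the 2 most abundant, and Gapdh whatever its result. Of the called genes of these lists, 2 are not reported here. Of the 32 genes, 9 have near-identical copies and 13 share exon bases with another gene, so their counts are less certain. These include Hk1, Hif1a and Ndrg1, which overlap genes on the opposite strand.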

Additional observations from a re-analysis of the deposited data

Results flagged for a closer look

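In 4 of 64 groups of 6 libraries (32 genes in each genotype), 1 library stood far from the others of its genotype in log2 CPM, where chance gives about 1 in 20. Ndrg1 in AMKO 5 was the lowest of its group at 8.665, with the next library at 9.373, and without it the log2 difference between genotypes was 0.70. Gpi1 in WT 2 was the lowest of the WT libraries at 6.874, with the next at 7.002. Pkm in WT 1 was the highest of the WT libraries at 8.493, with the next at 8.281. Ankrd37 in WT 3 was the lowest of the WT libraries at -0.4667, with the next at 0.264, and rested on 7 counts.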

How the results depend on the processing

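The 32 genes under 26 alternatives gave 832 comparisons, of which 756 kept direction and side of the threshold, 22 lost a call, 19 gained one and 35 changed sign, all 35 among genes not called. The number of genes called, 794, became 456 with total count scaling, 1259 with DESeq2, 1664 with limma voom, 1345 with the leukocyte covariate, 167 with WT 4 to 6 alone, 231 with WT 1 to 3 alone and 98 without WT 3, WT 6, AMKO 3 and AMKO 6. Leaving out 1 library gave 411 (AMKO 3) to 1140 (AMKO 5). Of the 32, 3 were called, against 1 with total count scaling, 6 with DESeq2, 7 with limma voom, 5 with the leukocyte covariate, 1 with WT 1 to 3 alone, 1 without those 4 libraries, and 1 to 5 with 1 library left out. The causes were not tested. With the replicate number as a block, 910 genes and 3 of the 32 were called. Deviations of same-numbered libraries had r from -0.16 to 0.346, above 0.1 in 4 of 6 pairs, with 2 of 6 closest to their own number, and numbers 3 and 6 hold the neutrophil-poor libraries of both genotypes. As not every pair deviated together and no label ties the numbers, they were not taken to pair the samples. Log2 differences that changed sign, with the range over libraries left out in turn, were as follows. With WT 1 to 3 alone Pfkl was 0.0037, Pfkfb4 -0.13, Slc16a3 -0.048 and P4ha1 0.11. With WT 4 to 6 alone Pfkp was 0.076. Without the 4 libraries Pfkl was 0.052 and Egln1 -0.0076. With the acinar covariate Pfkl was 0.0011 and Pfkp 0.0024. With limma voom Pfkfb4 was -0.039 and Egln3 -0.28, and Egln3 was -0.11 with the block and -0.064 with the leukocyte covariate. Ranges were -0.12 to 0.012 for Pfkl, -0.070 to 0.042 for Pfkp, -0.084 to 0.26 for Pfkfb4, -0.055 to 0.36 for Slc16a3, -0.36 to 0.26 for Egln3, -0.21 to 0.11 for Adm, -0.22 to 0.0091 for Bnip3, -0.15 to 0.018 for P4ha1 and -0.38 to 0.016 for Ankrd37. No scaling moved the median of all genes by more than 0.1 on the log2 scale. Egln3 (3 to 65 counts per library) and Ankrd37 (5 to 26) have the widest counting error.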
